A study of Mus musculus with 16 samples.

Results

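The 36 genes described here encode ligands and receptors of axon guidance and cell adhesion molecules of the nervous system. They were chosen by name as a group of known function, and their chosen measures were the islands over each gene and its 5 kb flanks. They are 36 of the 21887 protein-coding genes of the annotation used (RefSeq, GRCm38.p6). There were 6 secreted ligands, 4 membrane-bound ligands, 2 Robo receptors, 6 plexins and neuropilins, 4 Eph receptors, 3 netrin receptors, 4 cadherins, 5 immunoglobulin cell adhesion molecules and 2 protocadherins. The study mapped histone marks by chromatin immunoprecipitation and sequencing (ChIP-seq) in mouse neural stem cells grown as neurospheres from the E14.5 telencephalic cortex. H3K4me3, H3K27ac, H3K4me1, H3K27me3, H3K36me3 and H3K36me2 were each profiled in wild-type cells and in cells heterozygous for Setd5 (Setd5+/-), and the V5 epitope of SETD5-V5 was immunoprecipitated from wild-type cells. Setd5 encodes a SET-domain protein. The 3 groups were thus wild type, Setd5+/- and wild type with V5-tagged SETD5, all untreated and all from the same embryonic day. The Setd5 allele, the way the tag was introduced, the mouse strain, the sex of the embryos and the number of embryos behind a culture are details that the labels do not state. Each genotype had 1 library per mark, so there is no replicate error, no test between genotypes was made, and every difference below is a difference between libraries.

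Growing axons are steered by secreted and membrane-bound cues. Slits signal through Robo receptors, class 3 semaphorins through neuropilins and plexins, ephrins through Eph receptors, and netrin through DCC and UNC5 receptors, while cadherins and immunoglobulin adhesion molecules hold cells and axon bundles together. In neural progenitors several of these proteins also act in cell adhesion at the ventricular surface and in migration. Among the marks, H3K4me3 is found at promoters, H3K27ac at active promoters and enhancers, H3K4me1 at enhancers, and H3K27me3 is deposited by Polycomb. H3K36me3 is typical of transcribed gene bodies, and H3K36me2 forms broader domains inside and between genes.

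The data are lists of islands, the enriched intervals called by SICER, each with the number of reads in it. Island reads ranged from 1019278 to 5093126 per library. Of 12 neural stem cell markers, 10 had H3K4me3 and 10 had H3K27ac at the promoter in both genotypes, and Pax6 and Msi1 had no H3K4me3 call. None of 8 microglia and blood markers had promoter H3K4me3 in either genotype, though 1 had H3K27ac in both, and 2 of 8 endothelial and mesenchymal markers had it in both. Of 10 neuronal markers, 6 had it in wild type and 5 in Setd5+/-, and no neuronal marker had H3K27ac. In bulk cells, a mark in fewer cells and less of the mark in every cell cannot be told apart. Relative to the other autosomes, the Setd5+/- libraries of all 6 marks covered more of chromosomes 1, 4 and 15 than the wild-type libraries did. The ratio of covered length for H3K36me2 was 9.06 on chromosome 1, 3.10 on chromosome 4 and 3.92 on chromosome 15, against 0.611 on the other autosomes. H3K27me3 on the X chromosome spanned 22.2 Mb of islands in the wild-type library and 6.71 Mb in the Setd5+/- library. The 5 members on chromosomes 1 (Plxna2, Nrp2, Epha4), 4 (Epha7) and 15 (Sema5a) are therefore shown apart, and for them genotype and the change of the chromosome cannot be told apart. H3K36me3 lay over 98.5% of the Setd5 gene in the wild-type library and 73.3% in the Setd5+/- library, which does not check the allele.

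The members were long genes, from 27.06 kb (L1cam) to 1555 kb (Robo2), with a median of 288 kb against 17.2 kb over all protein-coding genes. The promoter table lists starts for 25 of the 36, and 32 starts in all. The other 11 (Slit1, Ntn1, Sema6a, Plxna1, Plxna4, Dcc, Unc5d, Cdh2, Cdh11, Cdh13 and Ncam1) were called at either annotated end, since their strand was not given. The 250 bases before a start held a median of 18 CG dinucleotides in the members and 10 over 21263 promoters. The 9 promoters of the 6 members with listed starts and H3K27me3 at the promoter in either genotype had a median of 24. Epha7, Cntn5 and L1cam each gave 2 of these 9, and their 2 stretches of 250 bases overlap. The motif TATAAA, searched on both strands, was in 2 of the 32 promoters (6.25%, Efnb2 and Slit2) and in 11.6% of all promoters. A CG reads the same on both strands and does not overlap TATAAA.

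Promoters of 7 members are printed because of their promoter state: Slit3 as a start rich in CG without H3K4me3, Sema3a as a start with the fewest CG of the members, Efna5 for H3K27me3 in both genotypes, and Nrp2, Epha3, Cntn5 and L1cam for a state that differed. Each is the 250 bases before a listed start, 5′ to 3′ on the gene's strand, from RefSeq on GRCm38.p6, with CG in capitals. Slit3 (chr11:35121206-35121455, plus strand) held 35 CG and Sema3a (chr5:13396534-13396783, plus strand) held 2. Efna5 (chr17:62881318-62881567, minus strand) held 32, and Nrp2 (chr1:62703067-62703316, plus strand) also held 32. Epha3 (chr16:63864176-63864425, minus strand) held 16, Cntn5 (chr9:10904776-10905025, minus strand) held 24, and L1cam (chrX:73880835-73881084, minus strand) held 12. Cntn5 and L1cam each have a further listed start close by, with 26 and 20 CG before it, and the start farther upstream is the one printed.
Slit3: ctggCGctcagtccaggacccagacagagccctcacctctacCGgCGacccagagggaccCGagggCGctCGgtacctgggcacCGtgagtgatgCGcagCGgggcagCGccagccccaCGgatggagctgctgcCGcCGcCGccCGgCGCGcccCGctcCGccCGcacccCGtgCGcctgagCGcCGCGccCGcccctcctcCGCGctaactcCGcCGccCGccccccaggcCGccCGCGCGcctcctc
Sema3a: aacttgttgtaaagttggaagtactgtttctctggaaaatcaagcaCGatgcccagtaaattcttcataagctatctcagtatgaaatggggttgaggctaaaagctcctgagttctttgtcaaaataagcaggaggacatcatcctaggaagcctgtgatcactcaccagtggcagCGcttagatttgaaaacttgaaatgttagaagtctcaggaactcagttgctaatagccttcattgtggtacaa
Efna5: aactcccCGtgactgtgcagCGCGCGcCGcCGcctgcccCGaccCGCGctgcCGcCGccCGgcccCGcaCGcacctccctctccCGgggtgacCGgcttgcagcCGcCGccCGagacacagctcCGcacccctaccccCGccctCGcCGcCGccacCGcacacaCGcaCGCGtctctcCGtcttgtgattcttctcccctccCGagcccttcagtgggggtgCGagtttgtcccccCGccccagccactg
Nrp2: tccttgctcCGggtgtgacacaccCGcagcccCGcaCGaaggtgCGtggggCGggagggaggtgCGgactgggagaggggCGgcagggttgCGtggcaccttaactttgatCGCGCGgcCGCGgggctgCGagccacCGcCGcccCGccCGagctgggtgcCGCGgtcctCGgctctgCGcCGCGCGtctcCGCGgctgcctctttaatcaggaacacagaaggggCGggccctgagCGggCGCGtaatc
Epha3: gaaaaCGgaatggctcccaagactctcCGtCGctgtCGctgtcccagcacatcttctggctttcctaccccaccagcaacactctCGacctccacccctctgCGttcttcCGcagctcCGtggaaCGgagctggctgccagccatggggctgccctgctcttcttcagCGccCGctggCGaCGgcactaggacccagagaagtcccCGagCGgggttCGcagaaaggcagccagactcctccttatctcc
Cntn5: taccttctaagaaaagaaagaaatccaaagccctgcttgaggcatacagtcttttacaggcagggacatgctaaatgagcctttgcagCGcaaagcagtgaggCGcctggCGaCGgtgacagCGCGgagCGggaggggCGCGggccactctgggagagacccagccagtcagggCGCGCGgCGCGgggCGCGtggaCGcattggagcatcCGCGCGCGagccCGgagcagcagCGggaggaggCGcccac
L1cam: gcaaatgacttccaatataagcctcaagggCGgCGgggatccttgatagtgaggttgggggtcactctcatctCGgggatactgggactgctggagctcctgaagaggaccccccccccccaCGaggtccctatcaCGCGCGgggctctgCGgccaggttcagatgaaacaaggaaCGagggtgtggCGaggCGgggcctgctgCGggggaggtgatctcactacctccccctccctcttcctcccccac

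Most members carried H3K4me3 at the promoter in both genotypes. An island within 1 kb of a start (or of a gene end where no start is listed) was counted as a promoter island. H3K4me3 was present at 30 of 36 members in wild type (83.3%; 60.2% of all protein-coding genes) and at 29 in Setd5+/- (80.6%; 58.6% of all genes). It was called in both genotypes at 28 members (57.9% of all genes) and at Unc5d and Cntn5 in wild type alone (2.28% of all genes). L1cam had it in Setd5+/- alone (0.717% of all genes). The 5 members without a call in either genotype were Slit1, Slit3, Sema3a, Cdh8 and Cdh13 (39.1% of all genes had none). H3K27ac was at 12 promoters in wild type (37.9% of all genes) and 13 in Setd5+/- (35.9% of all genes), a share of the members of 33.3% and 36.1%. Robo1 had it in wild type only (6.16% of all genes), and Nrp2 and Cdh2 in Setd5+/- only (4.1% of all genes).

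**Figure D1:**
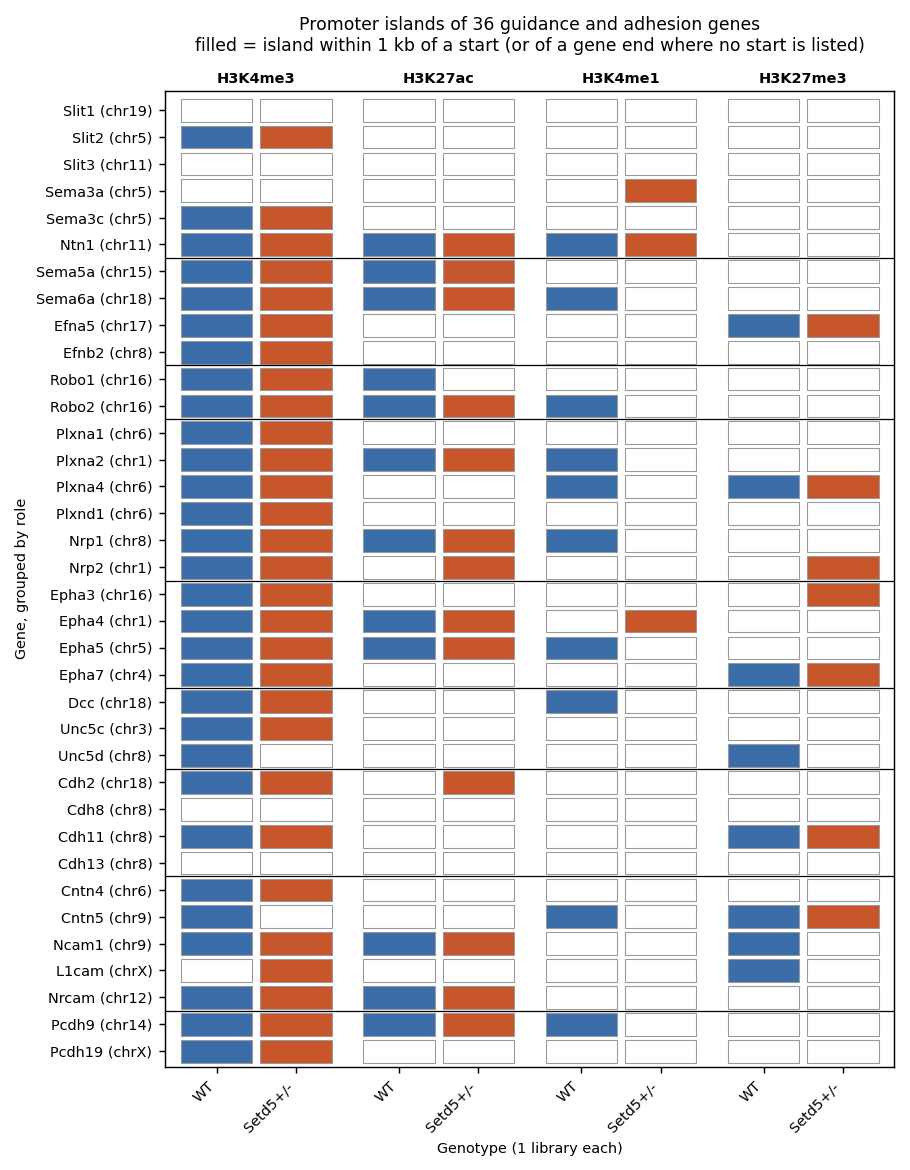
Promoter islands of the 36 genes (rows, grouped by role) for H3K4me3, H3K27ac, H3K4me1 and H3K27me3 (column pairs), with wild type in blue and Setd5+/- in orange and 1 library for each column. A filled box is an island within 1 kb of a start or, without a listed start, of a gene end: H3K4me3 fills 30 and 29 boxes, and H3K27me3 fills 8 and 7.

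Polycomb-marked promoters were a smaller group, and its members were not the same in the 2 genotypes. H3K27me3 was within 1 kb of the start of 8 members in wild type (22.2%; 7.94% of all genes) and 7 in Setd5+/- (19.4%; 6.18% of all genes). Efna5, Epha7, Plxna4, Cdh11 and Cntn5 had it in both genotypes (4.63% of all genes). Unc5d, Ncam1 and L1cam had it in wild type only (3.31% of all genes), and Nrp2 and Epha3 in Setd5+/- only (1.55% of all genes). L1cam lies on the X chromosome, where H3K27me3 was lower as a whole in Setd5+/-, and Nrp2 lies on chromosome 1. H3K4me3 and H3K27me3 were both present at 7 members in wild type (19.4%; 4.65% of all genes) and 6 in Setd5+/- (16.7%; 3.0% of all genes). The islands that decided these calls often lay beside the start and not over it. With the island required over the start base itself, 2 members had H3K27me3 in each genotype and none differed. H3K4me1 was within 1 kb of 10 members in wild type (34.8% of all genes) and 3 in Setd5+/- (16.6% of all genes), with 9 in wild type only (25.0%; 21.4% of all genes) and Sema3a and Epha4 in Setd5+/- only (3.13% of all genes). The H3K4me1 list as a whole had 35464 islands in wild type and 24243 in Setd5+/-.

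Among the secreted ligands, the Slits differed from each other. Slit1 and Slit2, repellent ligands of Robo receptors, carried H3K27me3 over their bodies, and Slit3 had no H3K27me3 island in either genotype. Over Slit1 (chr19:41597824-41747275), H3K27me3 covered 25.4% of the span in wild type (10 islands, 1346 reads) and 8.16% in Setd5+/- (5 islands, 359 reads). Over Slit2 (chr5:47981291-48307735) it covered 11.2% in wild type (13 islands, 1004 reads) and 23.6% in Setd5+/- (28 islands, 1952 reads). H3K27me3 was thus lower over Slit1 and higher over Slit2 in the Setd5+/- library. The Slit1 difference was -11.4 points in place of -17.3 without the sparsest 20% of islands, and also -11.4 at equal covered length, where the sparsest islands of the longer list were removed until both genotypes covered the same length. At the Slit2 promoter, H3K4me3 had 127 reads over 1.6 kb in wild type and 47 reads over 1.0 kb in Setd5+/-. The log2 ratio of reads per kb was -0.83 (95% counting interval -1.34 to -0.34), relative to the median of islands shared on autosomes other than 1, 4 and 15. Such intervals hold counting error alone, since reads copied by PCR cannot be traced to separate molecules here. Slit3 (chr11:35121456-35708507), whose promoter is rich in CG, had 1 H3K4me3 island of 31 reads in Setd5+/- lying 466 kb from its start, and no H3K36 methylation.

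In Sema3a, a secreted class 3 semaphorin that repels axons through neuropilin-1 and class A plexins, the 2 forms of H3K36 methylation differed in opposite directions. Its annotated span (chr5:13124822-13603485) begins 272 kb before the listed start, so that start lies inside the span. Over the span, H3K36me2 covered 35.3% in wild type and 3.84% in Setd5+/-. H3K36me3 had no island in wild type and covered 16.3% in Setd5+/-, in 5 islands with 1174 reads. It was the only member in which H3K36me2 was lower and H3K36me3 higher by at least 10 percentage points each. This was the case for 45 of 16853 genes of at least 5 kb (0.267%), a share not matched for gene length. Wild-type H3K36me2 covered a mean of 1.08% of those genes and 3.56% of genes of at least 100 kb. Of the 77.9 kb under H3K36me3 in Setd5+/-, 52.3 kb (67.1%) lay where H3K36me2 lay in wild type. The 1 Mb on each side of the gene had H3K36me3 over 0.0% in wild type and 0.106% in Setd5+/-, and H3K36me2 over 3.43% and 2.52%. A H3K4me3 island with 860 reads in wild type and 1160 in Setd5+/- began 1.62 and 1.42 kb from the listed start, outside the 1 kb window, which is why Sema3a counted as unmarked. The 250 bases before that start held the fewest CG among the members, a number shared with 1 start of Cntn4.

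Sema3c, a secreted semaphorin that signals through neuropilins and plexin D1, had promoter H3K4me3 with 335 reads in wild type and 346 in Setd5+/- and no H3K36 methylation or H3K27me3 in either genotype. In Ntn1, the secreted netrin that binds DCC and UNC5 receptors, wild-type H3K36me3 covered 20.3% and Setd5+/- H3K36me3 14.9%, and H3K36me2 covered 7.21% in wild type only. Its H3K4me3 island lay at the higher coordinate end. H3K27ac lay at the lower coordinate end alone in wild type and at both ends in Setd5+/-, so the wild-type H3K27ac call of Ntn1 was not at the end with H3K4me3.

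**Figure D2:**
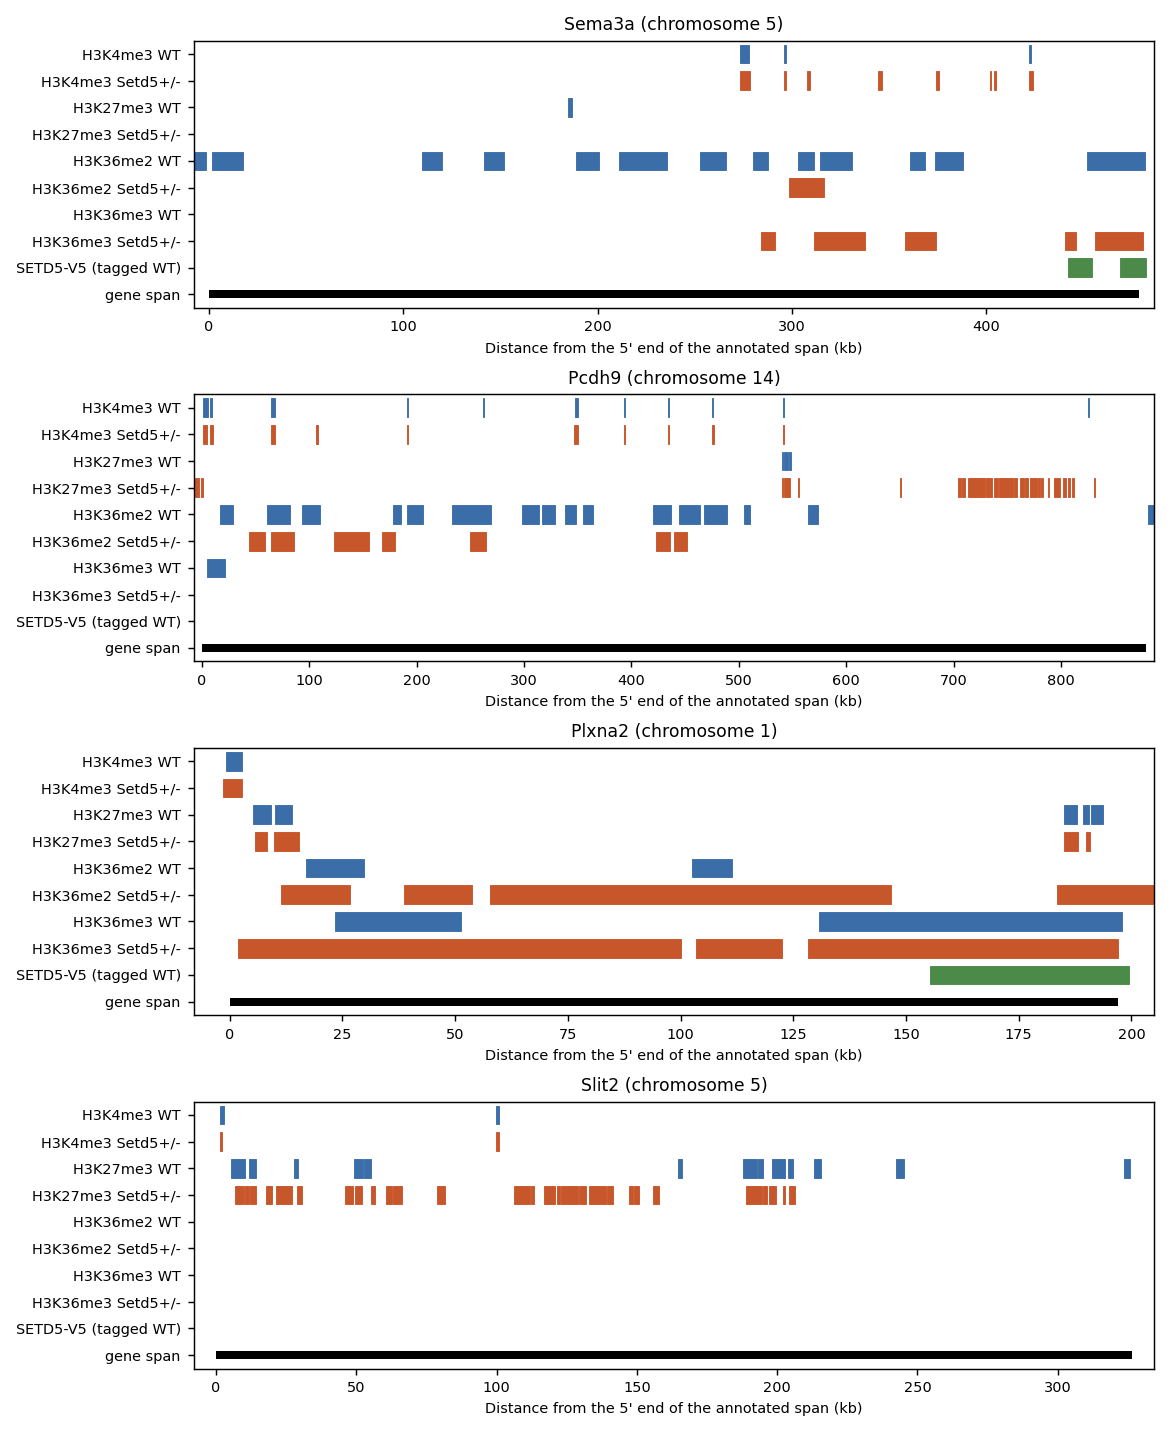
Islands over Sema3a, Pcdh9, Plxna2 and Slit2 (4 panels) by distance in kb from the 5′ end of the annotated span, with the span as a black bar. Each row is 1 library (wild type blue, Setd5+/- orange, SETD5-V5 green) and each box 1 island; over Sema3a, H3K36me3 islands appear in the Setd5+/- row only.

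The membrane-bound ligands split into marked and bare gene bodies. Sema5a, a transmembrane semaphorin, and Sema6a, a transmembrane ligand of class A plexins, carried both forms of H3K36 methylation in wild type. In Sema5a (chr15:32244813-32696341) H3K36me2 covered 33.7% in wild type and 86.5% in Setd5+/-, and H3K36me3 9.39% and 28.4%. Both were higher in Setd5+/-, on a chromosome that gained coverage as a whole, and the H3K36me3 difference was 8.504 points, under the threshold, without the sparsest 20% of islands. In Sema6a (chromosome 18) H3K36me3 covered 52.7% in wild type and 59.3% in Setd5+/-, while H3K36me2 covered 14.6% in wild type and had no island in Setd5+/-. The H3K36me2 of Sema6a was 1 island of 247 reads. Efna5, an ephrin tethered by a lipid anchor, had H3K27me3 within 1 kb of its start in both genotypes (183 reads over 4.2 kb in wild type, 180 reads over 5.6 kb in Setd5+/-) beside H3K4me3 (119 and 191 reads). Efnb2, a transmembrane ephrin, had H3K4me3 with 438 reads over 3.8 kb in wild type and 230 reads over 2.6 kb in Setd5+/-, a log2 ratio of -0.45 (95% counting interval -0.69 to -0.22), and no H3K27me3. Neither ephrin had H3K36 methylation over its span.

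Robo1 and Robo2, the receptors for Slits, both lie on chromosome 16 and had H3K4me3 at a listed start in both genotypes. The listed start of Robo1 lies 636 kb inside its annotated span. At Robo1, H3K4me3 had 334 reads over 2.8 kb in wild type and 316 reads over 1.8 kb in Setd5+/-, a narrower island with 0.49 more on the log2 scale of reads per kb (95% counting interval 0.26 to 0.71). Its H3K27ac island of 53 reads in wild type had no counterpart in Setd5+/-. At Robo2, H3K27ac was called in both genotypes, with 55 reads in wild type and 79 in Setd5+/-. H3K36me2 covered 5.02% of Robo1 in wild type and 1.25% in Setd5+/-, and 9.88% and 6.64% of Robo2. Neither had H3K36me3. Of the wild-type H3K36me2 in Robo2, 153.6 kb, only 22.9% lay under H3K36me2 in Setd5+/-, and in Robo1 none did.

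All 6 plexins and neuropilins, the receptor subunits for semaphorins, had H3K4me3 at the promoter in both genotypes. Plxna2 (chr1:194619791-194816869) had H3K36me3 over 47.9% in wild type and 94.6% in Setd5+/-, the highest value of any member, and H3K36me2 over 10.96% and 67.4%. Nrp2 (chr1:62703317-62818692), the co-receptor for class 3 semaphorins, had no H3K36me3 in wild type and 42.3% in Setd5+/-, with H3K36me2 over 12.5% and 54.8%. Both genes lie on chromosome 1. When the 20% of islands with the fewest reads per kb were left out of each list, the H3K36me3 difference of Nrp2 was 6.24 points in place of 42.3, below the 10-point threshold. Nrp2 also had promoter H3K27ac (31 reads) and H3K27me3 (65 reads, beginning 0.48 kb from the start) in Setd5+/- only, while its H3K4me3 had 619 reads in wild type and 792 in Setd5+/-. The other neuropilin, Nrp1, on chromosome 8, went the other way for H3K36me3, from 9.80% to no island, which misses the 10-point threshold. Its H3K36me2 was 8.09% in wild type and 10.3% in Setd5+/-. Plxna1 had H3K36me3 over 51.8% and 53.6% with no H3K36me2, and Plxna4 had promoter H3K27me3 in both genotypes (62 and 54 reads) with a body coverage of 6.09% and 2.43%. Plxnd1, the receptor for Sema3e and part of the Sema3c receptor, had H3K4me3 alone.

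The Eph receptors are tyrosine kinases that bind ephrins, and each of the 4 members lies on a different chromosome. Epha4 (chr1:77367182-77515107) had no H3K36 methylation in wild type, and in Setd5+/- H3K36me3 covered 23.3% and H3K36me2 58.4%. Epha7 (chr4:28813066-28967503) had neither form in either genotype, and its H3K27me3 covered 6.69% in wild type and 7.60% in Setd5+/-. Epha7 was thus the member on the 3 gained chromosomes without a gain in H3K36 methylation, and its 1 Mb flanks held none in either genotype. Epha5 (chromosome 5) had H3K36me3 over 14.0% in Setd5+/- and none in wild type, and H3K36me2 over 17.2% in wild type and 10.8% in Setd5+/-. The Epha5 gain of H3K36me3 was 0.0 points when the sparsest islands of each list were left out and 2.64 points at equal covered length. Epha3 (chromosome 16) had H3K27me3 over 3.74% in wild type and 8.98% in Setd5+/-, and the added islands included 1 of 99 reads within 0.38 kb of the start, beside H3K4me3 with 257 reads in wild type and 201 in Setd5+/-.

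Of the netrin receptors, Dcc and Unc5c kept promoter H3K4me3 and Unc5d did not. Dcc, the attractive netrin receptor, had 459 reads in wild type and 464 in Setd5+/-, and Unc5c, a repulsive netrin receptor, 336 and 331. Unc5d had a weak H3K4me3 island of 40 reads in wild type and H3K27me3 islands of 148 and 78 reads on the sides of the same gene end, and none of these in Setd5+/-. All 3 carried H3K36me2 in wild type, with 0.583% of Dcc, 9.31% of Unc5c and 2.79% of Unc5d. In Setd5+/- only Unc5c had H3K36me2 among them, over 6.498%. None had H3K36me3 in either genotype.

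Cdh2, the N-cadherin of the apical junctions of neural progenitors, had H3K36me3 over 28.3% in wild type and 26.5% in Setd5+/-. Its H3K36me2 covered 21.4% in wild type (3 islands, 714 reads) and had no island in Setd5+/-. Promoter H3K27ac of Cdh2 was called in Setd5+/- only, as 2 islands with 61 reads, but a wild-type island lay 1.05 kb from the same gene end, just outside the window. Cdh11, a classical cadherin of mesenchyme and brain, had H3K4me3 with 149 reads in wild type and 80 in Setd5+/-, a log2 ratio of -0.56 (95% counting interval -0.97 to -0.15), and H3K27me3 at the same end with 141 and 93 reads. Its H3K36me3 was 10.4% and 4.69%. Cdh8, a classical cadherin, had no island of any mark within its span in either genotype, with 20 CG in the bases before its start. Cdh13, a cadherin without a transmembrane segment, had 4 H3K4me3 islands in wild type and 7 in Setd5+/-, the nearest 21.4 and 21.6 kb from an end (35 and 47 reads). The island with the most reads lay 143 kb from the nearer end, with 397 reads in wild type and 411 in Setd5+/-. H3K36me3 covered 1.28% of Cdh13 in wild type and 3.24% in Setd5+/-.

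The immunoglobulin adhesion molecules ranged from broadly marked to nearly bare. Nrcam (chr12:44328786-44605194) had H3K36me3 over 15.3% in wild type and 18.8% in Setd5+/-, and H3K36me2 over 24.9% and 11.6%. Ncam1 had H3K36me3 over 5.11% and 9.15% and H3K36me2 over 17.5% and 16.7%. This was the smallest relative change in H3K36me2 coverage among members with over 10% in wild type on autosomes other than 1, 4 and 15. The place of the islands differed more, since 46.2% of the 52.0 kb of wild-type H3K36me2 in Ncam1 lay under H3K36me2 in Setd5+/-. An H3K27me3 island of 35 reads at the end of Ncam1 was called in wild type only, beside H3K4me3 with 528 reads in wild type and 557 in Setd5+/-. Cntn4, a lipid-anchored contactin, had promoter H3K4me3 with 92 reads in wild type and 73 in Setd5+/- and H3K36me2 over 1.02% in wild type only. Both listed starts of Cntn4 lie 441 kb inside its annotated span. Over the span and its 5 kb flanks, H3K4me3 had 359 reads in wild type and 182 in Setd5+/-, in 2 islands each. The log2 ratio of reads per kb there was -0.69.

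Cntn5, also a contactin (chr9:9634223-10904775), had the widest single change of H3K27me3 at a start. The island over its start was 2.0 kb with 49 reads in wild type (95% counting interval 36.3 to 64.8) and 23.8 kb with 756 reads in Setd5+/- (703 to 812). H3K4me3 at the same start had 85 reads over 1.6 kb in wild type and no island in Setd5+/-. Wild-type H3K36me2 covered 4.66% of Cntn5, in 5 islands with 937 reads, and none in Setd5+/-. L1cam, the X-linked adhesion molecule of axon bundles (chrX:73853778-73880838), showed H3K27me3 of 32 reads in wild type at 0.19 kb from the start and H3K4me3 of 28 reads in Setd5+/-, each without an island in the other genotype. Both are close to the lowest counts of their lists, which were 17 reads for wild-type H3K27me3 and 16 reads for Setd5+/- H3K4me3. H3K27me3 was lower on the X chromosome as a whole in Setd5+/-. Over the 1 Mb on each side of L1cam it covered 12.4% in wild type and 1.65% in Setd5+/-.

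The protocadherins, which mediate weak adhesion between neurites, both had strong promoter H3K4me3. Pcdh9 (chr14:93013700-93892834) had 996 reads there in wild type and 874 in Setd5+/-. Its H3K36me2 covered 26.1% in wild type and 13.7% in Setd5+/-, and 24.4% of the wild-type H3K36me2 length was also under H3K36me2 in Setd5+/-. Its H3K27me3 went from 0.842% to 9.85%. Of these islands in Setd5+/-, 29 with 2205 reads over 76.4 kb lay between 702 and 828 kb from the start, where wild type had none. Pcdh19 (chrX:133582860-133689044) had H3K27me3 over 25.8% in wild type (12 islands, 667 reads) and 7.72% in Setd5+/- (5 islands, 173 reads), on a chromosome where H3K27me3 was lower as a whole. At equal covered length of the H3K27me3 lists the difference in Pcdh19 was -3.58 points, under the threshold, in place of -18.1. Its H3K4me3 had 529 and 564 reads.

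Over all members, H3K36me3 was sparse, and each difference past the threshold was a higher value in Setd5+/-. Most members are long genes. In wild type, H3K36me3 covered a mean of 7.07% of the members, against 13.7% of genes of at least 100 kb and 26.0% of genes of at least 5 kb. It covered at least 25% of the span of Plxna2, Cdh2, Sema6a and Plxna1 in wild type (11.1% of the members; 35.2% of genes of at least 5 kb), and of these 4 with Nrp2 and Sema5a in Setd5+/- (16.7%; 36.8% of genes). It was higher in Setd5+/- by at least 10 points in 6 members (16.7%; 11.8% of genes) and lower in none (12.0% of genes). The 6 were Plxna2, Nrp2, Epha4, Sema5a, Sema3a and Epha5. A fall of 10 points needs at least 10% in wild type, so members with less H3K36me3 there could not be called lower. The wild-type level was not matched between the members and the genes of at least 5 kb. Without the sparsest 20% of islands, Plxna2, Epha4 and Sema3a stayed past the threshold, Nrp2, Sema5a and Epha5 did not, and 4 members in all were higher and 1 was lower. On autosomes other than 1, 4 and 15, Sema3a and Epha5 remained, 2 of 29 members (6.90%; 9.81% of genes). The mean over the 29 was 6.79% in wild type and 7.60% in Setd5+/-, with a median of 0.0% in both.

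**Figure D3:**
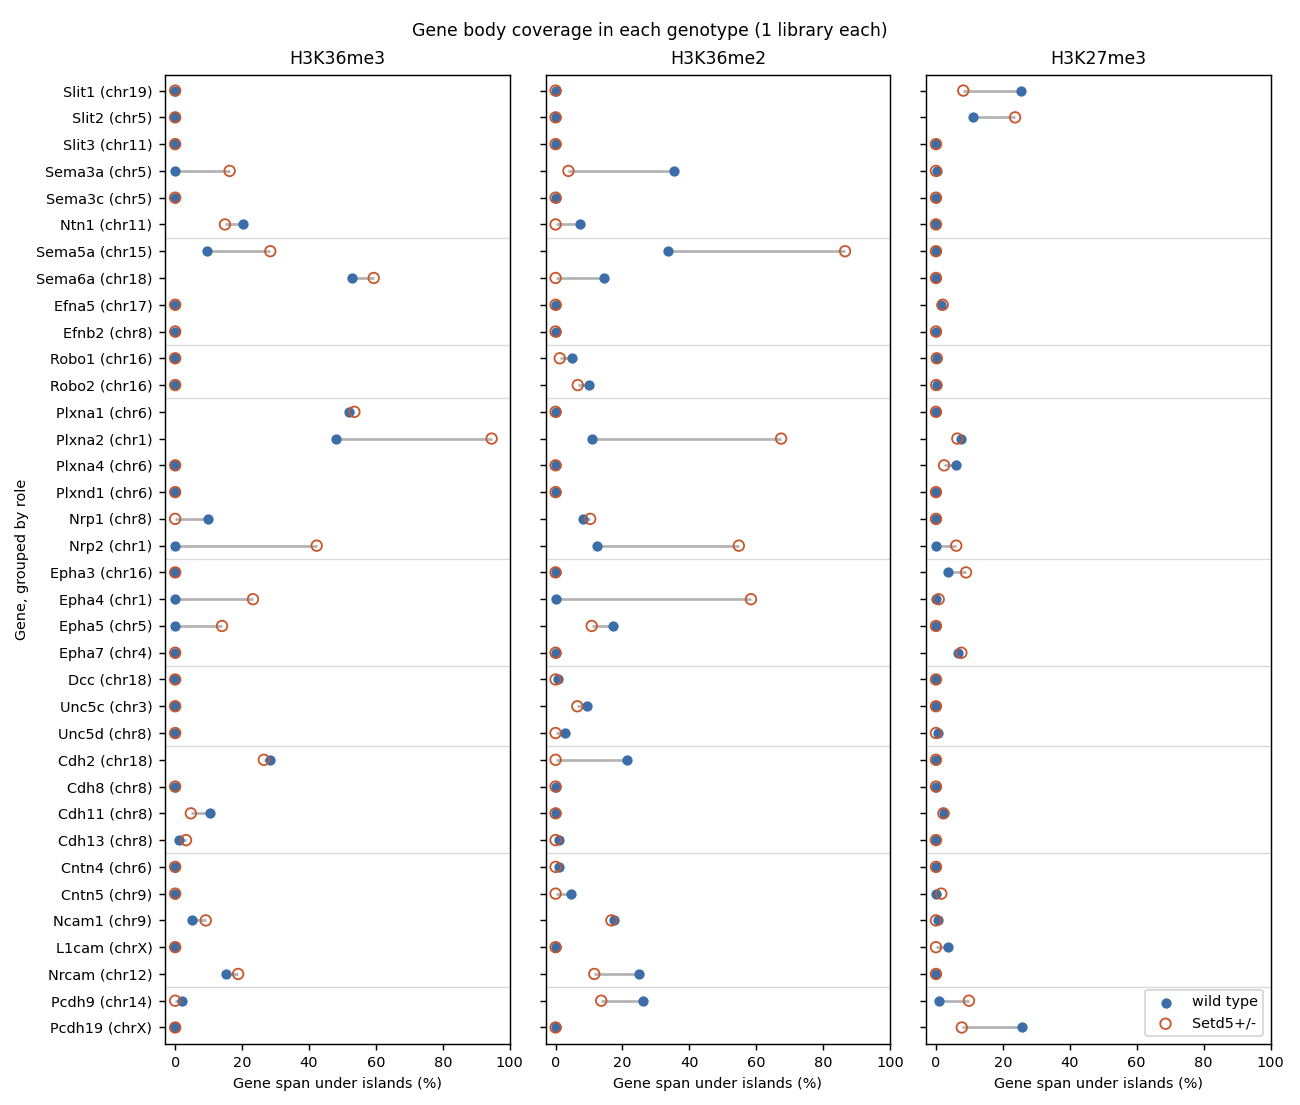
Percent of each gene span under H3K36me3, H3K36me2 and H3K27me3 islands (3 panels) for the 36 genes, with wild type as filled blue points, Setd5+/- as open orange circles and 1 library each. The longest lines for H3K36me2 run to the right for Plxna2, Epha4, Sema5a and Nrp2 (chromosomes 1 and 15) and to the left for Sema3a (35.3% to 3.84%) and Cdh2 (21.4% to 0.0%).

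H3K36me2 islands were found over a larger share of the members than of all long genes. An island anywhere in the span counted, so longer genes have more room for one, and length beyond a 100 kb cut was not matched. Dcc, for example, counted with 0.583% of its span covered in wild type. Of the 32 members of at least 100 kb, 20 had an H3K36me2 island in wild type (62.5%), against 28.8% of genes of that length. In Setd5+/- it was 13 (40.6% against 23.1%). It was higher in Setd5+/- by at least 10 points in Plxna2, Epha4, Sema5a and Nrp2 (11.1% of the members; 4.49% of genes of at least 5 kb), all on chromosomes 1 and 15, and in no member elsewhere. It was lower in Sema3a, Cdh2, Sema6a, Nrcam and Pcdh9 (13.9%; 2.46% of genes of at least 5 kb), none of them on those chromosomes. Among genes of at least 100 kb on autosomes other than 1, 4 and 15 the count was 5 of 26 members (19.2%; 9.75% of genes). Only genes with at least 10% in wild type can fall by 10 points, and the wild-type level was not matched. Leaving out the 20% of islands with the fewest reads per kb from each list kept 3 of the 5 past the threshold and lost Sema6a and Nrcam. At equal covered length the differences were larger in Nrcam (-24.9 points in place of -13.3) and in Pcdh9 (-24.6 points in place of -12.5). Over the 29 members on those autosomes the mean was 7.13% in wild type and 2.80% in Setd5+/-, and over genes of at least 100 kb there it was 3.59% and 1.87%.

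The gain of H3K36me2 over the members of chromosomes 1 and 15 was shared with their surroundings. H3K36me2 over the 1 Mb on each side of Plxna2 was 5.68% in wild type and 56.8% in Setd5+/-, and around Nrp2 it was 5.54% and 56.5%. Around Epha4 it was 1.52% and 27.4%, and around Sema5a 2.02% and 30.4%. The spans of Plxna2, Epha4 and Sema5a were covered more by H3K36me2 than their flanks in Setd5+/-, and the span of Nrp2 was not. H3K36me3 over the same flanks was 2.16% in wild type and 4.80% in Setd5+/- at Plxna2. It was 6.92% and 8.20% at Nrp2, 2.64% and 3.84% at Epha4, and 4.56% and 10.2% at Sema5a. The median log2 ratio of H3K4me3 reads per kb over shared islands within 5 Mb was 0.36 at Plxna2, 0.34 at Epha4, 0.21 at Nrp2, 0.15 at Sema5a and -0.01 at Epha7. When both genotypes were brought to the same covered length of H3K36me2 by removing the sparsest islands, Epha4 had no H3K36me2 in Setd5+/-, the difference in Nrp2 was 22.2 points in place of 42.3, and that in Sema5a was 19.7 points in place of 52.9. The part of the chromosome-wide change in these values was not tested.

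**Figure D4:**
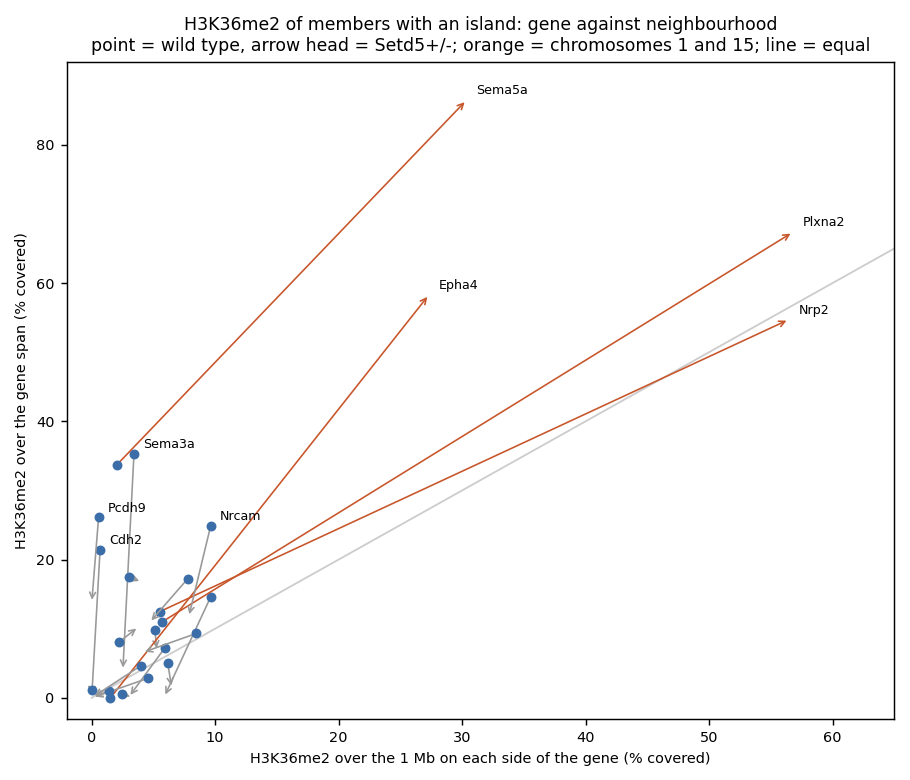
H3K36me2 over the gene span (vertical axis, percent covered) against the 1 Mb on each side (horizontal axis, percent covered) for members with an H3K36me2 island in either genotype. Points are wild type and arrow heads Setd5+/-, with 1 library each; the orange arrows of Plxna2, Nrp2, Epha4 and Sema5a run up and right, and those of Sema3a, Pcdh9, Cdh2 and Nrcam run down.

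The place of H3K36me2 within the long members differed from gene to gene in wild type. Over the 22 members of at least 100 kb with a listed strand, the mean H3K36me2 coverage in wild type from the first to the last of 4 equal parts was 12.1%, 9.64%, 8.60% and 5.80%. Over 1866 genes of that length it was 4.52%, 4.43%, 3.57% and 2.26%. The last part had the lowest mean in both sets. The high first part of the members rested on Nrcam, with 79.9% there, and without it the 4 means over 21 members were 8.84%, 10.1%, 8.08% and 6.08%. An H3K36me2 island lay in the 4 parts of 10, 8, 10 and 5 of the 22 members. Robo2 (0.0%, 6.79%, 13.4% and 19.3%) and Nrp1 (32.3%, in the last part alone) had their highest coverage at the end of the gene, and in Sema3a the first part had the lowest value (21.8%, 39.7%, 38.8% and 41.0%). Wild-type H3K36me3 was highest in the last part, with 2.73%, 0.198%, 2.07% and 10.3% in the members and 8.13%, 10.5%, 15.0% and 21.9% in all such genes. In Setd5+/- the members' H3K36me2 means were 12.97%, 17.0%, 16.9% and 13.4%, values that include the members on chromosomes 1 and 15. Inside member spans, 52.8 kb was under both H3K36me3 and H3K36me2 in wild type (11.8% of the former and 4.39% of the latter), and 261 kb in Setd5+/- (31.2% and 24.0%). Over the genome the shared length was 1.501% of H3K36me3 and 4.13% of H3K36me2 in wild type, and 8.39% and 14.0% in Setd5+/-. The Setd5+/- overlaps, in members and over the genome, also include chromosomes 1 and 15. Plxna2 alone had 186.4 kb of H3K36me3 and 132.9 kb of H3K36me2 within its 197.08 kb span in Setd5+/-.

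**Figure D5:**
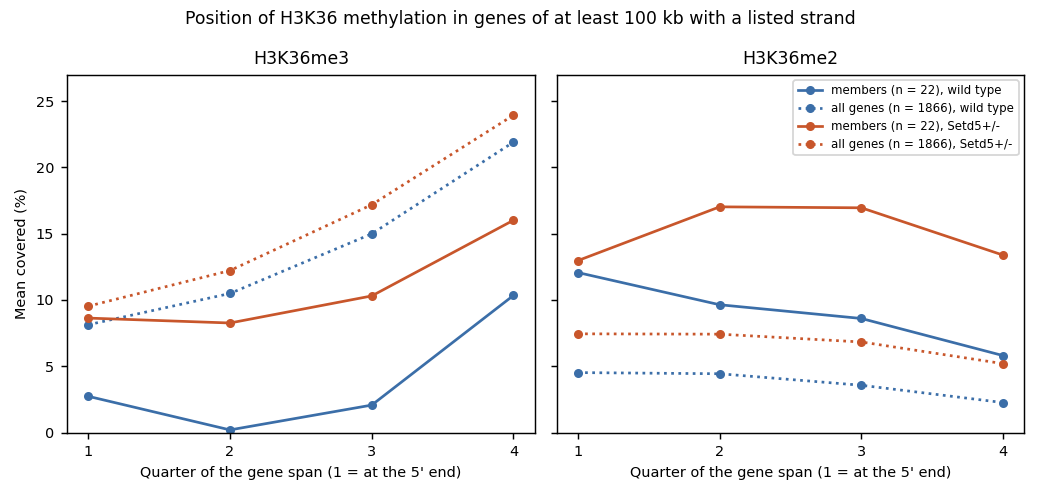
Mean percent covered by H3K36me3 and H3K36me2 (2 panels) in 4 equal parts of the gene span from the 5′ end, for 22 members (solid lines) and 1866 genes of at least 100 kb (dotted lines), with wild type in blue and Setd5+/- in orange. Wild-type H3K36me2 goes from 12.1% to 5.80% in the members, above the 4.52% to 2.26% of all such genes; without Nrcam the members' first part is 8.84%.

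H3K27me3 over gene bodies differed by 10 points in 3 members. It was higher in Setd5+/- in Slit2 (1 of 36, 2.78%; 1.64% of genes of at least 5 kb) and lower in Slit1 and Pcdh19 (5.56%; 4.41% of genes). Of the members of at least 100 kb, 16 had an H3K27me3 island in wild type (50.0%; 32.3% of such genes) and 15 in Setd5+/- (46.9%; 31.0%). Here too an island anywhere in the span counted, and length beyond the 100 kb cut was not matched. H3K27me3 and H3K36me2 shared no base inside member spans in wild type, and 11.2 kb in Setd5+/-.

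SETD5-V5 islands lay over 9 members in wild type (25.0%; 27.9% of genes of at least 5 kb). They covered 27.9% of Sema6a, 21.1% of Plxna2, 14.6% of Cdh11, 7.53% of Nrcam, 5.08% of Cdh2, 4.84% of Ncam1, 4.57% of Sema3a, 4.41% of Epha5 and 0.514% of Robo2. For SETD5-V5 too an island anywhere in the span counted, and the share of members with one was not matched for gene length. Mean SETD5-V5 coverage was 2.52% in the members, 7.02% in genes of at least 100 kb and 14.6% in genes of at least 5 kb. Of the 192 kb under SETD5-V5 inside members, 64.8% was also under wild-type H3K36me3 and 8.502% under wild-type H3K36me2. In Plxna2 the island of 794 reads began 155 kb from the start and ran past the end of the gene. In Sema3a 2 islands with 386 reads lay near the end of the gene and overlapped in part with wild-type H3K36me2 and with Setd5+/- H3K36me3. No member had SETD5-V5 within 1 kb of a start. With the sparsest 20% of SETD5-V5 islands left out, 4 members had one. Cells without the tag were not analysed here.

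The density of reads was compared where a mark was present in both genotypes. Over the 28 members with promoter H3K4me3 in both, the log2 ratio of reads per kb ran from -0.83 (Slit2) to 0.49 (Robo1), with a median of -0.02. Summed over all islands of a member and its 5 kb flanks, no member reached a 2-fold difference in this density for H3K4me3, H3K27me3, H3K36me3 or H3K36me2. The density is that inside called islands, so a loss of islands need not lower it. Over Sema3a, H3K36me2 had 2837 reads in wild type and 323 in Setd5+/-, with a log2 ratio of 0.035. Over Slit1, H3K27me3 had 1346 and 359 reads, with a log2 ratio of -0.08. The background was the genes with islands of the mark in both genotypes. For H3K4me3, 0.455% of 14273 such genes were at least 2-fold higher in Setd5+/- and 0.483% lower. The shares were 0.12% and 2.12% of 2500 genes for H3K27me3 and 0.0122% and 0.0122% of 8181 for H3K36me3. For H3K36me2 they were 0.383% and 0.0% of 522. The median log2 ratio for H3K36me3 was 0.04 over 12 members and 0.02 over all such genes, and for H3K36me2 it was 0.07 over 12 members and 0.06 over all such genes.

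The 98 other genes of the same pathways gave a background of related function. Promoter H3K4me3 was at 80 of them in wild type (81.6%) and 74 in Setd5+/- (75.5%). Of these, 7 were called in wild type alone, and Cdh18, on chromosome 15, in Setd5+/- alone. Promoter H3K27me3 was at 17 in wild type (17.3%) and 10 in Setd5+/- (10.2%). Of the 95 of at least 5 kb, H3K36me3 was higher by 10 points in 13 and lower in 9 (11.8% and 12.0% of all genes of at least 5 kb). H3K36me2 was higher in 8 and lower in 4 (4.49% and 2.46% of those genes), and H3K27me3 was higher in none and lower in 5 (1.64% and 4.41%). All 8 with higher H3K36me2 lie on chromosome 1 or 15. Of the 13 with higher H3K36me3, Nck2, Farp2, Cdh20, Srgap2 and Enah lie on chromosome 1. The 18 intracellular effectors, among them kinases and regulators of actin, had a mean H3K36me3 coverage of 41.3% in wild type and 44.5% in Setd5+/-, against 7.07% and 11.4% over the 36 members. The largest changes of H3K36me3 were in Pcdh18 (0.0% to 90.2%), Ntn4 (83.5% to 29.7%), Rgmb (0.0% to 48.1%) and Nck2 (0.0% to 39.1%). For H3K36me2 they were in Enah (0.0% to 94.5%), Nck2 (10.9% to 87.1%), Cdh20 (26.8% to 75.2%) and Farp2 (12.4% to 60.4%), all on chromosome 1. For H3K27me3 they were in Efna3 (39.8% to 0.0%), Pcdh8 (31.5% to 0.639%), Ntng2 (15.0% to 0.0%) and Epha10 (19.9% to 6.62%). In Srgap1, a Slit-Robo effector, H3K36me2 was lower and H3K36me3 higher by 10 points each, as in Sema3a.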

How the data were processed

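Island lists of 13 ChIP-seq libraries were used, and the 3 input samples are not analysed here. Cells were fixed in 1% formaldehyde, library PCR ran for 14 cycles, and sequencing gave 50 bp single reads, per the labels' protocols. Per the submitters' processing notes, FastQC, Bowtie2 2.2.3 and SICER 1.1 were used on GRCm38 (mm10). SICER ran with 800 bp windows, 2400 bp gaps and FDR 0.01 for both H3K36 marks and SETD5-V5, per the file headers. No setting stands in the headers of the remaining lists, where every island width divides by 200 bp. Each island's deposited value was taken as the authors' read counts because all are whole numbers. Library totals and how inputs were used were not stated in what was read here, so depth outside islands is unknown.

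The software was Python 3.11.15 with pandas 2.3.3, numpy 2.4.6, scipy 1.17.1 and matplotlib 3.10.9. Gene spans and listed starts came from RefSeq (GRCm38.p6), which gave no exons here. A promoter island lay within 1 kb of a start. Body coverage is the percent of the span under islands, called different at 10 percentage points, for genes of at least 5 kb. Read density (reads per kb) was compared as a log2 ratio, centred on the median of islands shared on autosomes other than 1, 4 and 15, and intervals on it are exact at 95%. Genes are named where they lie on chromosomes 1, 4 or 15, where a promoter state or body coverage differed, where coverage reached 25% or where SETD5-V5 was present, and of other pathway genes the 4 with the largest change per mark. Other members are named to account for all 36, and Cdh18 and Srgap1 were named after their values were seen. The members, lists and rules were chosen with earlier results of these data known. The code was tested on simulated data. Alternatives were the promoter window, the start base or either end, the change threshold, 5 kb flanks, stricter islands, equal covered length, other scaling, and leaving out chromosomes 1, 4, 15 and X. Means within long genes were also taken without Nrcam, a choice made after seeing the data.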

Additional observations from a re-analysis of the deposited data

How the results depend on the processing

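Of 87 counts recomputed under alternatives, 54 stayed within 1.5 times and 33 moved, and of 72 changes in the body coverage of single members 55 stayed past the threshold, 17 did not and none changed sign. With the island over the start base itself, H3K27ac was in wild type only at 2 members and in Setd5+/- only at 5, H3K4me1 at 2 and 0, and H3K27me3 at 0 and 0. With a window of 2.5 kb, H3K27ac was in wild type only at 2 and in Setd5+/- only at 1. With either gene end counted, the wild type only counts were 2 for H3K27ac and 5 for H3K27me3, and H3K4me1 was in Setd5+/- only at 1. Without chromosomes 1, 4, 15 and X, the Setd5+/- only counts were 0 for H3K4me3, 1 for H3K27ac, 1 for H3K4me1 and 1 for H3K27me3, H3K36me3 was higher in 2 members and H3K36me2 in 0, and H3K27me3 was lower in 1, since fewer genes are counted. With the stricter threshold, H3K4me3 was in wild type only at 1, H3K4me1 in Setd5+/- only at 1, H3K36me3 was lower in 1 member, H3K36me2 was lower in 3, and SETD5-V5 was over 4. At equal covered length, H3K4me3 was in Setd5+/- only at 0, H3K4me1 in wild type only at 4, H3K36me3 was lower in 1, and H3K27me3 was lower in 1. At 20 points, H3K36me3 was higher in 3, H3K36me2 lower in 2, and H3K27me3 higher in 0 and lower in 0. Relative to the sum of island reads, 1 member passed 2-fold for H3K27me3 and 2 for H3K36me2. Beyond the smaller gene set, the cause was not tested. With 1 library per group and unknown total depth, the absence of an island does not show the absence of a mark. No paired analysis was possible because each group has 1 library and no test was made.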
